A study of Mus musculus with 6 samples.

Results

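The 47 genes described here encode proteins that copy DNA: the origin recognition complex and the factors that load the replicative helicase, the helicase itself, the primase and the polymerases, the sliding clamp and its loader, the enzymes that finish lagging-strand fragments, the enzymes that supply deoxynucleotides, and factors for chromatin assembly and fork protection. They were matched by gene name in the deposited transcript tables, where 47 of 47 were found, each under 1 gene identifier, among 54446 genes in all. RNA was measured in CD8+ T cells isolated by negative selection from the spleens of wild-type C57BL/6 mice at 8 weeks of age. The Unstimulated group was fresh cells. The Control group was stimulated for 72 h, without magnets, by antibodies to CD3 and CD28 fixed to the plate, and the SMF group was stimulated for the same 72 h in a static magnetic field of 0.3 T. There were 2 libraries in each group. The labels do not say whether replicates came from separate mice or cultures, so p-values measure the spread between these libraries, which may be technical.

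A naive CD8+ T cell rests outside the cell cycle with its origins unlicensed. After the T cell receptor and CD28 are engaged it enters the cycle and divides repeatedly, and the genes for replication proteins are classically transcribed in late G1 and S phase, many of them through E2F factors once pocket proteins such as Rb release them. The hexameric MCM helicase is loaded on origins in G1 by ORC, CDC6 and CDT1, is activated in S phase by CDC45 and the GINS complex, and is followed by primase, polymerases and the PCNA clamp.

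Promoter sequence is shown first because these genes are known as E2F targets. RefSeq promoter windows (GRCm38.p6), from 250 bases before to 50 bases after each start, were matched by symbol for 38 members, in 44 windows. The remaining 9 members without an entry are *Mcm4*, *Gmnn*, *Gins1*, *Gins2*, *Gins4*, *Prim2*, *Pole*, *Rfc2* and *Tipin*. The E2F letters TTTCCCGC, TTTCGCGC, TTTGCCGC and TTTGGCGC were searched on both strands, where matches can overlap each other. They were present in 15 of the 44 windows (34.1%), against 2.26% of all 32851 windows of the same length. The letters CCAAT, the core of an NF-Y box, were present in either orientation in 26 windows (59.1%), against 37.4% of all windows. The same search was made for the other gene lists that are taken up near the end. E2F letters were present in 20% of windows of other replication genes, 38.9% for E2F and pocket protein genes and 5.88% for mitosis genes. CCAAT was present in 40%, 44.4% and 82.4% of these windows in the same order. A match of letters is a description and does not show that a factor binds there. The 180 bases before the RefSeq start are given for 5 members, picked among those whose E2F letters lie upstream of it. They are printed in the direction of transcription, with the E2F letters in capitals. They cover chr8:75109329-75109508 on the plus strand for *Mcm5*, chr1:128359706-128359885 on the minus strand for *Mcm6*, chr11:98907971-98908150 on the plus strand for *Cdc6*, chr4:108579274-108579453 on the plus strand for *Orc1* and chrX:93632156-93632335 on the minus strand for *Pola1*.
Mcm5: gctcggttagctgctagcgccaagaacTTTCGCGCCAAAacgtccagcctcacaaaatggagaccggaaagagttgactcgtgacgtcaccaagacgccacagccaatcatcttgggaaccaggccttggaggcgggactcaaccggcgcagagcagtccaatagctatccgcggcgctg
Mcm6: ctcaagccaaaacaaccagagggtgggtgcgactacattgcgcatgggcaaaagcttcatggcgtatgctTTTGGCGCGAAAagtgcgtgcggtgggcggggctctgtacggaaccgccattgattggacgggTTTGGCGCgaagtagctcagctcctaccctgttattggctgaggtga
Cdc6: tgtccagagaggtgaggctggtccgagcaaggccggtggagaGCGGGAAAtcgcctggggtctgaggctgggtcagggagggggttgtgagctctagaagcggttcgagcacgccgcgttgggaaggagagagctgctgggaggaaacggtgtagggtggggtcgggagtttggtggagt
Orc1: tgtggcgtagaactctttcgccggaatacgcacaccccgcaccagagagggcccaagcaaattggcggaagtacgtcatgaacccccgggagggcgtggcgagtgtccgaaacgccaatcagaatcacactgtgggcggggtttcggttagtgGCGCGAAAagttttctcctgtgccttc
Pola1: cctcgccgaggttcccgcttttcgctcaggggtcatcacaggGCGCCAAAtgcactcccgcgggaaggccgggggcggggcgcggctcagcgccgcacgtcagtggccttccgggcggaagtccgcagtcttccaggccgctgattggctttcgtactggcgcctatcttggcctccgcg
The matches lie in both orientations, and in *Mcm5* and *Mcm6* a pair of them overlaps in 1 run of capitals. In the annotation behind the FPKM values, *Cdc6* starts at 98907801 and *Orc1* at 108579423. The *Cdc6* stretch thus lies inside that annotated gene, as does the end of the *Orc1* stretch with its E2F letters. *Mcm7*, *Gins3* and *Rfc3* also had E2F letters upstream of the start and are not shown as sequence. Values of the genes shown follow below: *Mcm5*, *Mcm6*, *Cdc6* and *Pola1* rose in Control cells, and *Orc1* was not called in any comparison. Among the other members with E2F letters, *Mcm3*, *Rfc3*, *Lig1* and *Clspn* were called higher in Control than in Unstimulated cells. *Mcm7*, *Cdt1*, *Gins3*, *Pold1*, *Pold3* and *Pole2* were not. Whether the letters go with a rise was not tested.

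Values are FPKM, fragments scaled to transcript length and to the mapped total of the library, summed over the annotated transcripts of a gene, so levels can be compared between genes per length. Read counts were not used here, so a 0 is given only as a listing at 0. The bases covered by a library came to 67.4 and 132 Mb in the Unstimulated group, 64.4 and 172 Mb in the Control group and 259 and 227 Mb in the SMF group. Protein-coding genes took 49.1% to 50.5% of summed FPKM without the field and 69.2% and 68.7% in SMF replicates 1 and 2. By dated folder names in the headers, Unstimulated and Control replicate 1 belong to June 2017, their replicate 2 to November 2017, and the SMF pair to October 2018. Each date of 2017 thus holds 1 fresh and 1 Control library, whereas field and date cannot be told apart. All 6 markers of CD8 T cells were above 0 in every library, with summed levels from 336 to 807 FPKM. Markers of stimulated T cells (*Il2ra*, *Gzmb*, *Ifng* and *Mki67*) summed to 47.7 and 32.9 FPKM in fresh cells and to between 1859 and 4790 FPKM in stimulated cells. The 6 B cell markers summed to 167 and 120 FPKM in fresh cells with 6 of 6 above 0, against 2.43 to 28.6 FPKM in stimulated cells, where 1 to 4 of the 6 were above 0. The 7 myeloid markers summed to 140 and 161 FPKM in fresh cells and to between 47 and 53.8 FPKM in stimulated cells, where *Adgre1* was listed at 0. The 4 NK markers summed to 40.7 and 20.4 FPKM in fresh and 2.97 to 10.3 in stimulated cells, the 5 erythroid markers to 18.3 and 19.1 against 1.51 to 10.1, and the 3 CD4 T cell markers to 29.0 and 11.9 against 11.8 to 21.5. Of the CD4 sum in stimulated cells, *Foxp3* held 11.8 to 19.3 FPKM. The part of cells other than CD8 T cells in the comparisons with fresh cells was not tested. In bulk RNA, fewer cells that express a gene and less of its RNA per cell cannot be told apart.

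Replication genes were low in fresh cells and high at 72 h. Over the 47 genes, the median was 3.35 and 5.38 FPKM for Unstimulated replicates 1 and 2, 13.8 and 18.8 FPKM for Control and 33.9 and 31.4 FPKM for SMF. Fresh replicate 1 listed 13 of them at 0 and fresh replicate 2 listed 6, Control replicate 1 listed 1, and every remaining library 0. In 30 of the 47, every Unstimulated library lay below every Control library and every Control library below every SMF library. For the single steps, Control lay wholly above Unstimulated in 68.1% of the 47 and in 24.8% of all genes tested, as defined below. SMF lay wholly above Control in 80.9% of the 47 and in 37.4% of all genes tested. The share of all genes that took both steps was not counted. The test was limma, a linear model that borrows variance information across genes, run on log2(FPKM + 1) for the 14991 genes averaging 1 FPKM or more, all 47 members among them. A gene was called at the study's thresholds, 2-fold or more with an unadjusted p up to 0.05. Benjamini-Hochberg adjustment was also made over all 14991 genes. Fold changes on this scale understate the changes of low genes.

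**Figure D1:**
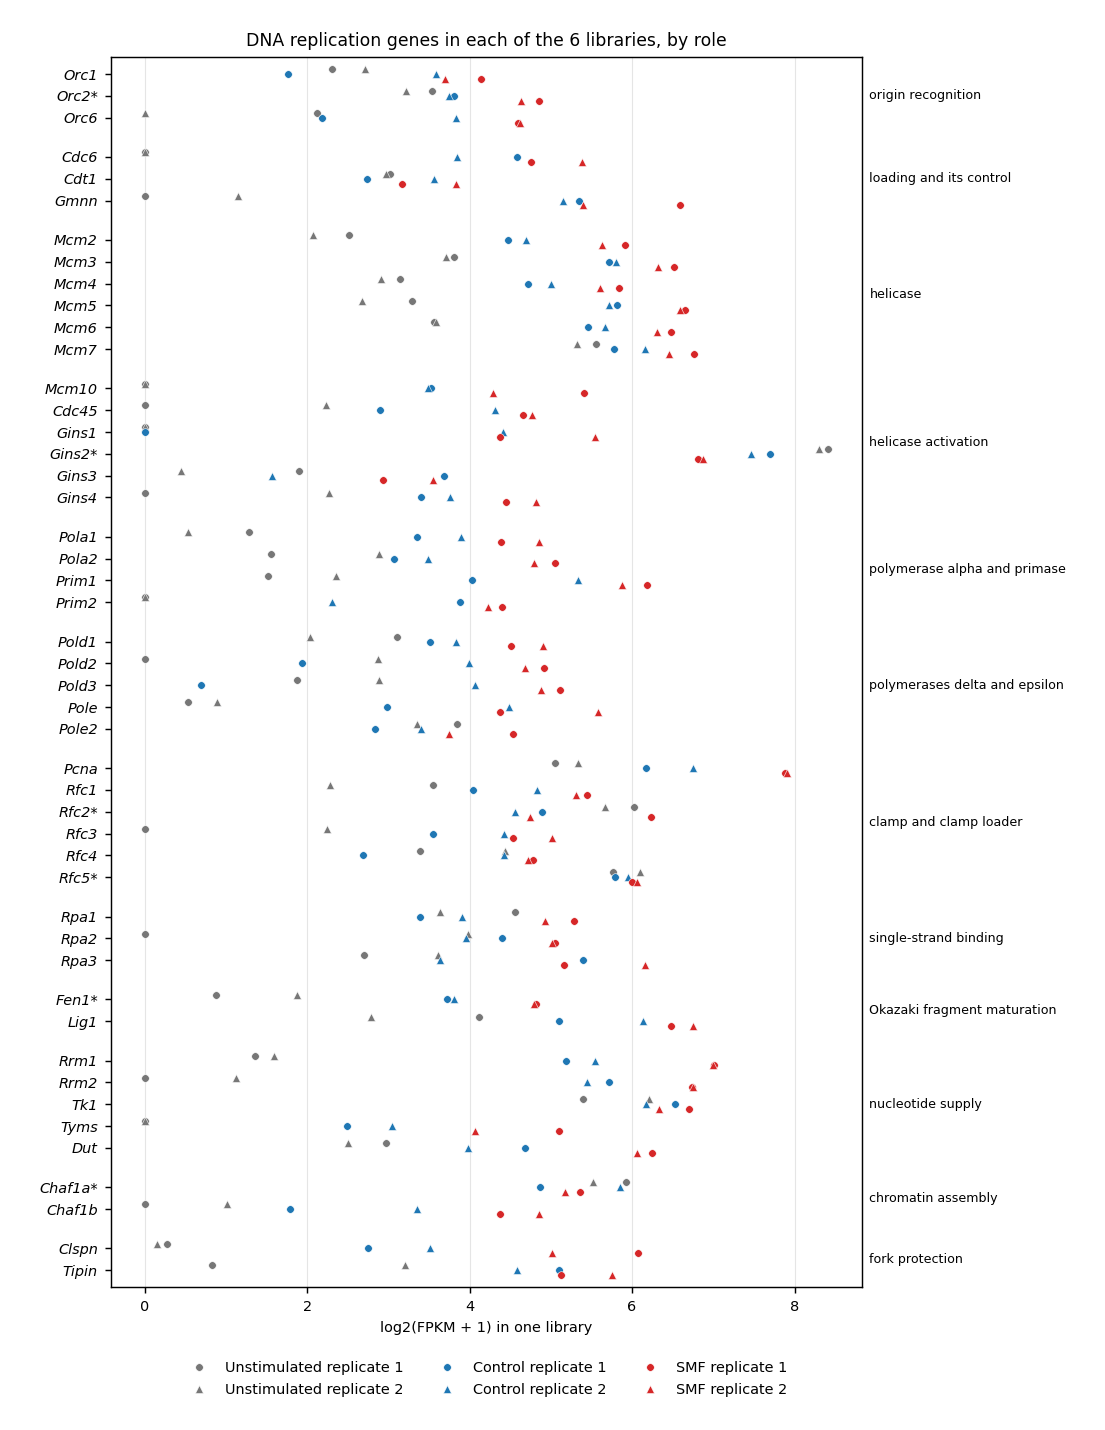
Level of each of the 47 genes as log2(FPKM + 1), 1 point per library (grey Unstimulated, blue Control, red SMF; circles replicate 1, triangles replicate 2), grouped by role; an asterisk marks the 6 genes with over 50 percent of their signal in exons that face another gene. Most genes step from grey through blue to red, while *Gins2*, *Rfc2*, *Rfc5* and *Chaf1a* are already high in fresh cells.

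In Control cells 26 of the 47 genes were called higher than in Unstimulated cells (55.3%) and 0 lower, where 12.3% of all genes tested were called higher and 12.6% lower. The median change on the log2 scale was 1.99 (all genes tested, -0.05), and single genes ranged from -1.11 to 5.02. After adjustment 17 genes passed 0.05, all of them higher (4.52% of all genes tested were higher and 3.96% lower), with a smallest adjusted p of 0.00707 in limma. Without Unstimulated replicate 1 or 2, 6 and 10 passed, and 0 without any 1 of the Control or SMF libraries. In 32 genes both Control libraries lay above both Unstimulated libraries (24.8% of all genes tested) and in 2 below (26.6%). The fit held no term for the date. Within dates, the median difference was 1.79 for replicate 1 and 1.94 for replicate 2, and a block on the date in these 4 libraries alone, added after the data were seen, called 25 genes higher and 1 lower, with 0 passing the adjusted p. The 5 genes listed at 0 in both fresh libraries, *Mcm10*, *Cdc6*, *Gins1*, *Prim2* and *Tyms*, have no defined fold change; their fitted values, which depend on the added 1, all lay above the median. The 26 calls are *Mcm2* to *Mcm6*, *Mcm10*, *Cdc6*, *Gmnn*, *Cdc45*, *Gins4*, *Pola1*, *Prim1*, *Prim2*, *Pole*, *Pcna*, *Rfc1*, *Rfc3*, *Fen1*, *Lig1*, *Rrm1*, *Rrm2*, *Tyms*, *Dut*, *Chaf1b*, *Clspn* and *Tipin*. Of these, 16 were called under every alternative tried and 17 with each library left out in turn. *Chaf1b* was called in 1 of the 6 fits with a library left out, *Cdc45*, *Gins4* and *Rfc1* in 2, and *Lig1* and *Tipin* in 4.

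In SMF cells 36 of the 47 genes were called higher than in Unstimulated cells (76.6%; 22.4% of all genes tested) and 1, *Gins2*, lower (14.8%). The median change on the log2 scale was 3.16 (all genes tested, 0.27). After adjustment 33 passed 0.05 higher (14.2% of all genes tested) and 1 lower (9.40%), with a smallest adjusted p of 0.00302 in limma. Without Unstimulated replicate 1 or 2, 19 and 23 passed, 25 without either Control library and 0 without either SMF library. Both SMF libraries lay above the fresh pair for 42 genes (39.7% of all genes tested) and below it for 2 (26.0%). This comparison and the one above share their Unstimulated libraries. Over the 3 comparisons, 38 genes were called at least once, and 9 never: *Cdt1*, *Gins3*, *Orc1*, *Pole2*, *Rfc2*, *Rfc4*, *Rfc5*, *Tk1* and *Chaf1a*.

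Between SMF and Control cells, 13 of the 47 genes were called higher (27.7%; 12.5% of all genes tested) and 0 lower (5.72%). They are *Mcm2*, *Mcm10*, *Pola2*, *Prim1*, *Pold3*, *Pcna*, *Rpa1*, *Rrm1*, *Rrm2*, *Tyms*, *Dut*, *Chaf1b* and *Clspn*. The median change on the log2 scale was 1.03 (all genes tested, 0.32), and 45 of the 47 were above 0. None (0) passed 0.05 after adjustment over all genes, the smallest adjusted p in limma being 0.136. Only 3 higher genes (0.0200%) and 1 lower gene (0.00667%) passed among all genes tested. The SMF pair lay wholly above the Control pair for 38 genes (37.4% of all genes tested) and wholly below it for *Gins2* (17.4%). The median difference of single libraries was 1.25 and 1.17 against Control replicate 1 and 0.90 and 0.87 against Control replicate 2. With scalings that bring the median of all genes near 0, the median of the 47 genes was 0.68 to 0.72, and 5 to 7 were called higher and 1, *Gins2*, lower. Of all genes tested, 5.68% to 6.11% were then called higher and 8.65% to 9.61% lower. *Pcna*, *Rrm1*, *Dut* and *Clspn*, 4 of the 13, were called under every alternative tried, single libraries left out included. With 1 library left out, the median change of the 47 genes was 0.85 to 1.23 (all genes tested, 0.26 to 0.35). Fewer of the 47 were called without either SMF library or without Control replicate 1.

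**Figure D2:**
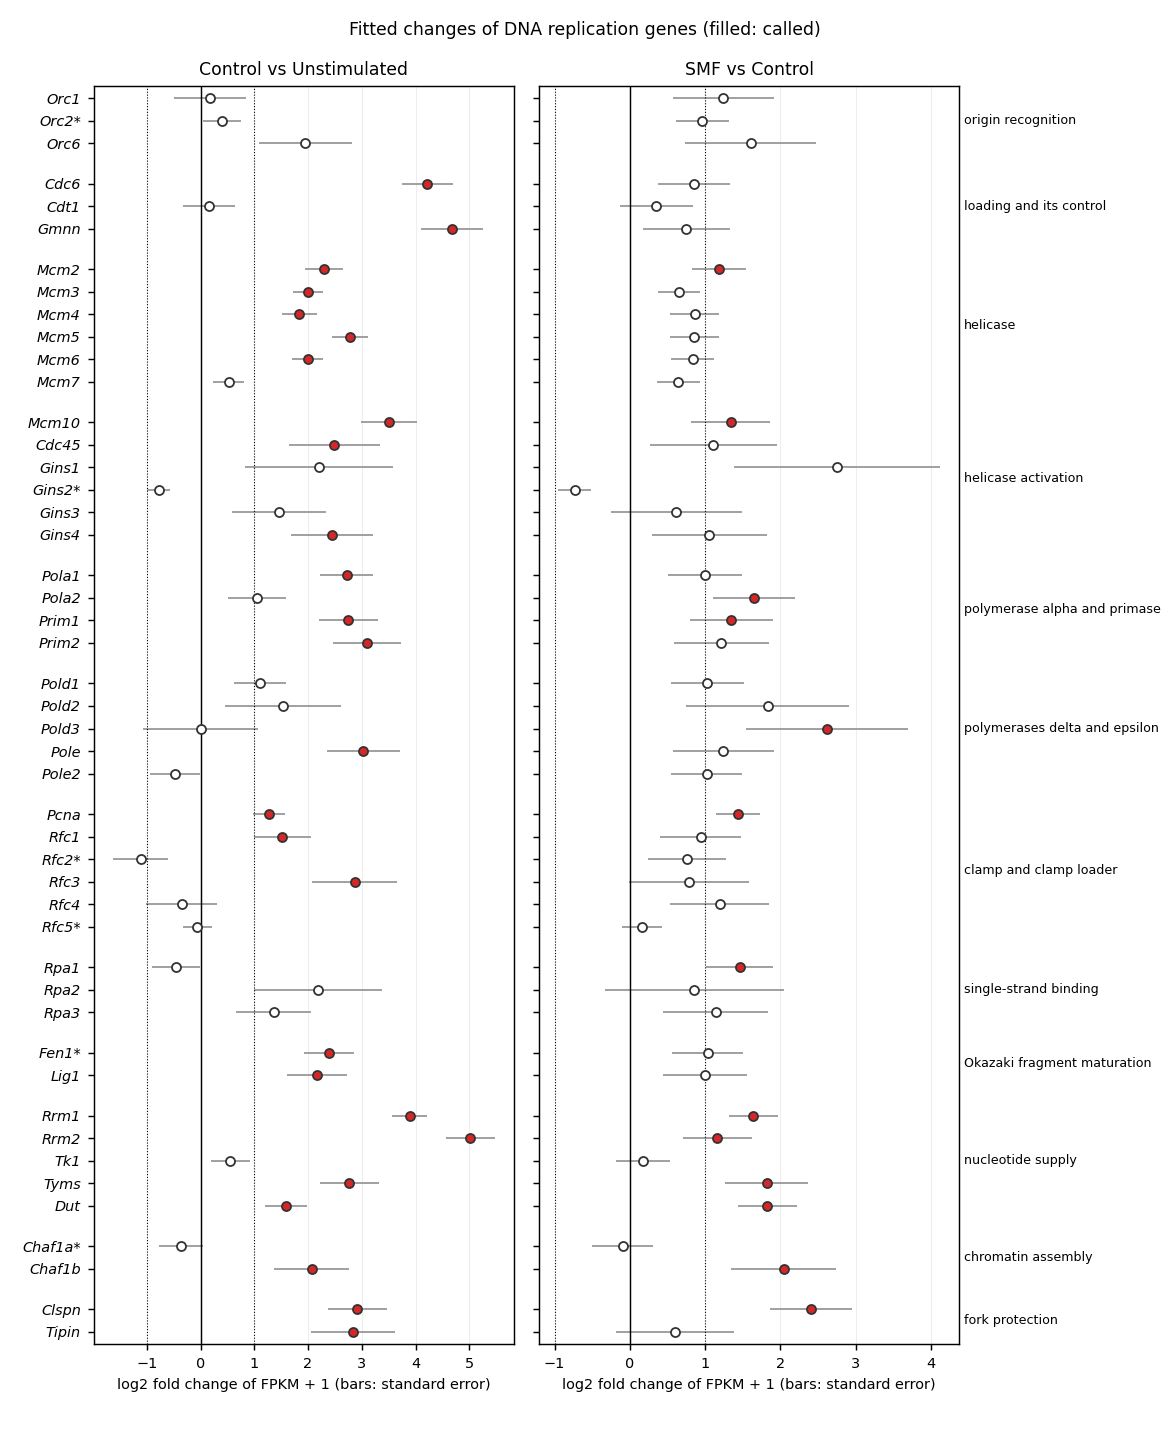
Fitted log2 fold change of FPKM + 1 with its standard error (bars) for each gene, Control against Unstimulated on the left and SMF against Control on the right; filled points were called, beyond 2-fold (dotted lines) and with unadjusted p no higher than 0.05, and asterisks mark the 6 genes with most signal in facing exons. On the left 26 points are filled, all right of 0. On the right 13 are, of which 0 passed 0.05 after adjustment over all genes.

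Among the origin recognition genes, which mark the sites where replication starts, 0 of 3 were called in Control against Unstimulated cells and 2 in SMF against Unstimulated cells. *Orc6* had 3.35 and 0 FPKM in Unstimulated, 3.53 and 13.2 in Control and 23.1 and 23.6 in SMF libraries. *Orc2* had 10.6 and 8.33 FPKM in Unstimulated, 13.0 and 12.4 in Control and 27.9 and 23.8 in SMF libraries. In both genes the SMF libraries stood above all others, and the log2 change from Control to SMF was 1.60 (standard error 0.86) for *Orc6* and 0.96 (0.35) for *Orc2*, with 50.4% of the *Orc2* signal in exons that face another gene. *Orc1*, the largest subunit, which is made in G1, ranged from 2.41 to 16.7 FPKM, with its SMF libraries above the others and its Control libraries on both sides of the fresh ones.

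*Cdc6* and *Cdt1* encode the loaders of the helicase, and *Gmnn* encodes geminin, the inhibitor of CDT1. *Cdc6* was listed at 0 in both Unstimulated libraries and had 22.9 and 13.4 FPKM in Control and 25.9 and 40.6 FPKM in SMF libraries (adjusted p = 0.0110 for Control against Unstimulated in limma). *Gmnn* had 0 and 1.21 FPKM in Unstimulated, 39.6 and 34.6 in Control and 95.4 and 41.2 in SMF libraries. Both rose with stimulation, with no overlap between fresh and stimulated cells. *Cdt1* was not called, with 7.08 and 6.84 FPKM in Unstimulated, 5.65 and 10.8 in Control and 7.96 and 13.3 in SMF libraries, a log2 change from Unstimulated to Control of 0.16 (standard error 0.49).

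The 6 subunits of the MCM helicase form a ring in equal numbers. In Control cells 5 of them rose, and in SMF cells all 6 were higher than in Unstimulated cells, each with an adjusted p under 0.05 in limma. *Mcm2* had 4.71 and 3.20 FPKM in Unstimulated, 21.1 and 24.9 in Control and 59.0 and 48.6 in SMF libraries. *Mcm3* had 13.0 and 12.1 FPKM in Unstimulated, 51.7 and 54.7 in Control and 90.4 and 78.7 in SMF libraries. The replicates of these genes lay close together and the 3 groups did not overlap.

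*Mcm4* had 7.82 and 6.48 FPKM in Unstimulated, 25.3 and 31.1 in Control and 56.3 and 47.7 in SMF libraries. *Mcm5* (ENSMUSG00000005410.6, chromosome 8) had 8.81 and 5.38 FPKM in Unstimulated, 55.4 and 51.6 in Control and 99.9 and 95.4 in SMF libraries. *Mcm6* had 10.8 and 11 FPKM in Unstimulated, 42.9 and 49.7 in Control and 88.5 and 78.3 in SMF libraries. Again no groups overlapped, and *Mcm5* had the largest change of the ring from Unstimulated to Control, 2.78 on the log2 scale (standard error 0.33, adjusted p = 0.0125 in limma).

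*Mcm7* stood apart: it had 46.2 and 38.9 FPKM in Unstimulated, 53.9 and 70.3 in Control and 107 and 86.9 in SMF libraries. It was the highest subunit in both fresh libraries, where 46.2% and 32.9% of its signal lay in exons that face *Ap4m1* or *Cops6*, against 10.9% to 13.9% in stimulated libraries. Over exons that face no other gene it had 39.18 and 37.96 FPKM in Unstimulated, 62.49 and 84.02 in Control and 132.7 and 110.8 in SMF libraries. It was thus still the highest subunit in both fresh libraries, and was still not called higher in Control than in Unstimulated cells. Over all exons, as in the ratios below, the log2 change of *Mcm7* from Unstimulated to Control was 0.53 (standard error 0.29, not called). The ratio of the highest to the lowest subunit was 9.82 and 12.2 in Unstimulated, 2.62 and 2.82 in Control and 1.91 and 2.0 in SMF libraries. Most of that fall lay in *Mcm7*: over the other 5 subunits the ratio was 2.77 and 3.79 in Unstimulated, 2.62 and 2.19 in Control and 1.77 and 2.0 in SMF libraries. Between SMF and Control cells *Mcm2* was called, at a log2 change of 1.19 (standard error 0.36), and the other 5 lay between 0.64 and 0.86, all with SMF libraries above Control libraries.

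**Figure D3:**
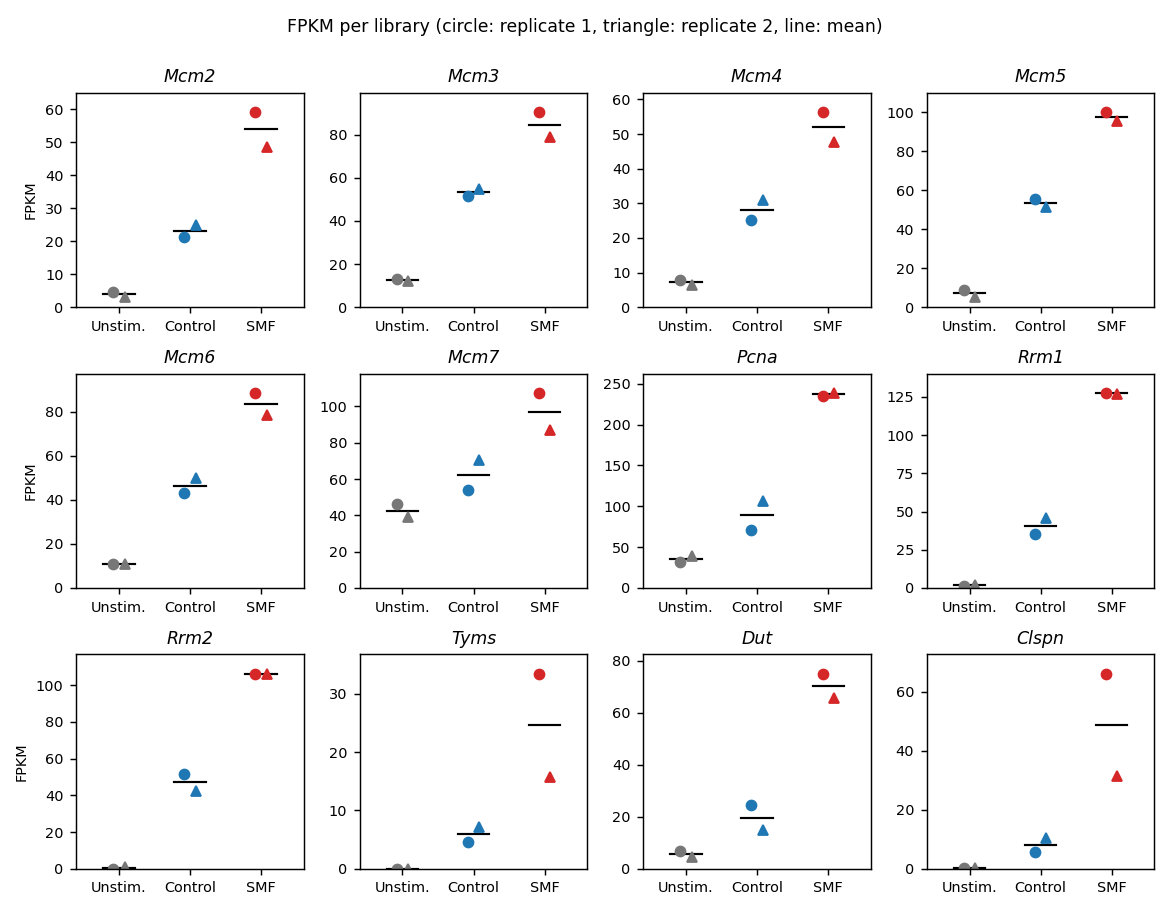
FPKM in each library (circle replicate 1, triangle replicate 2, line the mean of the 2) of the 6 MCM helicase subunits and 6 further genes, each panel on its own linear axis from 0. In all 12 genes the Control libraries lie above the Unstimulated and the SMF libraries above the Control libraries.

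The helicase is switched on by CDC45, by the GINS tetramer and by MCM10. *Mcm10* was listed at 0 in both Unstimulated libraries and had 10.5 and 10.3 FPKM in Control and 41.4 and 18.6 in SMF libraries, and it was called in all 3 comparisons. Its log2 change from Control to SMF was 1.34 (standard error 0.52), and 0.78 to 1.90 with 1 library left out. Of its FPKM, 41.1% lay on transcripts annotated as coding. *Cdc45* had 0 and 3.69 FPKM in Unstimulated, 6.45 and 18.8 in Control and 24.2 and 26.2 in SMF libraries. *Gins4* had 0 and 3.82 FPKM in Unstimulated, 9.59 and 12.5 in Control and 20.8 and 27.2 in SMF libraries. These 3 rose with stimulation. *Gins1* had a listing of 0 in the fresh pair and in Control replicate 1, against 20.2 FPKM in the other Control library and 19.7 and 45.6 FPKM in SMF. Its Control libraries thus spanned the range from a listing at 0 to the SMF level, and it was called only against Unstimulated in SMF cells. *Gins3* ranged from 0.361 to 11.8 FPKM and was not called. *Gins2* went the other way, with 339 and 315 FPKM in Unstimulated, 206 and 175 in Control and 111 and 116 in SMF libraries, and is taken up with the facing exons below.

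Polymerase alpha and primase lay down the first RNA and DNA of each fragment, and all 4 of their genes were called higher in SMF than in Unstimulated cells. *Pola1*, the catalytic subunit, had 1.44 and 0.448 FPKM in Unstimulated, 9.25 and 13.9 in Control and 20.0 and 27.9 in SMF libraries. *Prim1*, the primase catalytic subunit, had 1.86 and 4.11 FPKM in Unstimulated, 15.3 and 39.5 in Control and 71.8 and 57.7 in SMF libraries. *Prim2* was listed at 0 in both Unstimulated libraries and had 13.8 and 3.94 FPKM in Control and 20.0 and 17.7 in SMF libraries. These 3 were also called in Control cells, with adjusted p from 0.0283 to 0.0377 in limma. *Pola2*, a regulatory subunit, had 1.95 and 6.41 FPKM in Unstimulated, 7.39 and 10.2 in Control and 32.2 and 26.8 in SMF libraries. *Pola2* was called from Control to SMF, at a log2 change of 1.65 (standard error 0.54), and not from Unstimulated to Control.

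Polymerases delta and epsilon copy the lagging and the leading strand. *Pole*, the catalytic subunit of epsilon, had 0.452 and 0.846 FPKM in Unstimulated, 6.91 and 21.4 in Control and 19.8 and 46.7 in SMF libraries, and was the 1 gene of 5 called in Control cells. *Pold1*, the catalytic subunit of delta, had 7.60 and 3.10 FPKM in Unstimulated, 10.4 and 13.3 in Control and 21.8 and 28.9 in SMF libraries. Its groups did not overlap, yet Control against Unstimulated was not called (log2 change 1.11, standard error 0.49).

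*Pold2* had 0 and 6.31 FPKM in Unstimulated, 2.82 and 15.0 in Control and 29.2 and 24.6 in SMF libraries. *Pold3* had 2.68 and 6.37 FPKM in Unstimulated, 0.618 and 15.8 in Control and 33.7 and 28.5 in SMF libraries. In both of these accessory subunits the Control replicates lay far apart and the SMF libraries stood above every other library. *Pold3* was called from Control to SMF at a log2 change of 2.62 (standard error 1.07), a call that was lost without either SMF or Unstimulated library or without Control replicate 1, where the change was 0.93. *Pole2* ranged from 6.16 to 22.1 FPKM and was not called.

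*Pcna* encodes the ring that holds polymerases on DNA, and the Rfc genes encode the loader that opens it. *Pcna* (ENSMUSG00000027342.14, chromosome 2 of GRCm38, 132249162 to 132253314) had 32.1 and 39.3 FPKM in Unstimulated, 71.2 and 107 in Control and 235 and 239 in SMF libraries. It rose by 1.27 on the log2 scale in Control cells (standard error 0.29) and by a further 1.43 in SMF cells (standard error 0.29, adjusted p = 0.136 in limma). *Rfc1*, the large subunit, had 10.7 and 3.84 FPKM in Unstimulated, 15.5 and 27.4 in Control and 42.5 and 38.7 in SMF libraries. *Rfc3* had 0 and 3.72 FPKM in Unstimulated, 10.7 and 20.5 in Control and 22.1 and 31.4 in SMF libraries. Both rose in Control and in SMF cells against fresh cells. Over all exons the loader did not move together: *Rfc4* ranged from 5.46 to 26.4 FPKM, *Rfc2* from 22.6 to 74.0 and *Rfc5* from 53.6 to 67.2, and these 3 were not called in any comparison. Much of their signal in the Unstimulated libraries lay in exons that face another gene. The shares were 94.9% and 93.7% for *Rfc2*, 97.9% and 98.8% for *Rfc5* and 100% and 44.5% for *Rfc4*. Without these exons *Rfc2* was called higher in Control and in SMF than in Unstimulated cells, and *Rfc4* and *Rfc5* were not.

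Replication protein A coats single-stranded DNA, and 0 of its 3 genes were called in Control cells. *Rpa1*, the large subunit, had 22.6 and 11.5 FPKM in Unstimulated, 9.49 and 14.0 in Control and 38 and 29.5 in SMF libraries. It was called from Control to SMF at a log2 change of 1.46 (standard error 0.45). *Rpa2* had 0 and 14.7 FPKM in Unstimulated, 20.1 and 14.5 in Control and 32.1 and 31.3 in SMF libraries. The fresh replicates of *Rpa2* thus ran from a listing at 0 to above the lower Control library. *Rpa3* had 5.49 and 11.2 FPKM in Unstimulated, 40.9 and 11.5 in Control and 34.8 and 70.2 in SMF libraries. Both small subunits were called in SMF against Unstimulated cells. *Lig1*, the ligase that joins lagging-strand fragments, had 16.4 and 5.90 FPKM in Unstimulated, 33.2 and 69.2 in Control and 88.2 and 107 in SMF libraries. *Fen1*, the flap endonuclease, had 0.845 and 2.66 FPKM in Unstimulated, 12.2 and 13.1 in Control and 27.1 and 26.7 in SMF libraries. *Lig1* and *Fen1* rose in Control and in SMF cells against Unstimulated cells, without overlap, although 97.7% of the signal of *Fen1* lay in exons that face another gene, and without these its call in Control cells was lost.

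The genes of nucleotide supply held the largest fitted rise against fresh cells. *Rrm1* and *Rrm2* encode the subunits of ribonucleotide reductase, which makes deoxynucleotides. *Rrm1* (ENSMUSG00000030978.10, chromosome 7, 102441695 to 102469771) had 1.56 and 2.01 FPKM in Unstimulated, 35.3 and 45.8 in Control and 127 and 127 in SMF libraries. *Rrm2* (ENSMUSG00000020649.11, chromosome 12, 24708241 to 24714146) had 0 and 1.18 FPKM in Unstimulated, 51.4 and 42.6 in Control and 106 and 106 in SMF libraries. *Rrm2* had the largest fitted rise of the 47 genes in Control and in SMF cells against Unstimulated cells, 5.02 and 6.18 on the log2 scale (standard error 0.45 for both). The rise of *Rrm1* in Control cells was 3.89 (standard error 0.32, adjusted p = 0.00707 in limma), and from Control to SMF 1.64 (standard error 0.32, adjusted p = 0.136 in limma).

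*Tyms*, thymidylate synthase, was listed at 0 in both Unstimulated libraries and had 4.62 and 7.24 FPKM in Control and 33.4 and 15.7 in SMF libraries. *Dut*, the dUTPase that keeps uracil out of DNA, had 6.83 and 4.66 FPKM in Unstimulated, 24.6 and 14.8 in Control and 75.0 and 65.5 in SMF libraries. Both were called in all 3 comparisons, and from Control to SMF both had a log2 change of 1.82. *Tk1*, thymidine kinase of the salvage route, had 41.1 and 72.7 FPKM in Unstimulated, 91.2 and 71.2 in Control and 103 and 79.8 in SMF libraries. *Tk1* was not called, and 25.8% of its FPKM lay on transcripts annotated as coding, the lowest share of the 47 genes.

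*Chaf1b*, a subunit of the histone chaperone that follows PCNA, had 0 and 1.02 FPKM in Unstimulated, 2.46 and 9.22 in Control and 19.7 and 27.9 in SMF libraries. Its partner *Chaf1a* had 59.8 and 44.9 FPKM in Unstimulated, 28.2 and 56.7 in Control and 39.9 and 35.2 in SMF libraries. Over all exons the pair thus parted, *Chaf1b* called in all 3 comparisons and *Chaf1a* in none. However, 82.1% of the *Chaf1a* signal lay in exons that face another gene. Without these exons *Chaf1a* too was called higher in Control and in SMF than in Unstimulated cells. *Clspn* encodes claspin, which carries the checkpoint signal at forks, and had 0.212 and 0.115 FPKM in Unstimulated, 5.71 and 10.5 in Control and 66.1 and 31.4 in SMF libraries. Its change from Control to SMF, 2.41 on the log2 scale (standard error 0.55, adjusted p = 0.141 in limma), came after that of *Pold3* among the 13 called genes. *Tipin*, a partner of TIMELESS, had 0.770 and 8.21 FPKM in Unstimulated, 33.4 and 23.0 in Control and 33.9 and 53.1 in SMF libraries, and rose in both stimulated groups.

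Some of the genes overlap a neighbour on the other strand. In 33 of the 47 genes no signal lay in a facing exon, one that overlaps an exon transcribed from the opposite strand, and in 6 more than 50 percent did. Signal is coverage, multiplied by each library's ratio of FPKM to coverage, times exon length. It is summed over the 6 libraries, so that libraries with high levels weigh most. Within single libraries 4 to 7 genes were over 50 percent, 7 in each Unstimulated library, where *Rfc4* reached 100% in replicate 1 and *Lig1* 56.5% in replicate 2. Genes without such exons could also be high in fresh cells, such as *Pcna* with 0%. The pooled share was 98.6% for *Gins2* (facing *Gse1*), 97.7% for *Fen1* (*Tmem258* and *Gm10143*), 94.2% for *Rfc5* (*Wsb2*), 82.1% for *Chaf1a* (*Ubxn6*), 75.5% for *Rfc2* (*Lat2*) and 50.4% for *Orc2* (*Nif3l1*). *Gins2* (ENSMUSG00000031821.11) lies on the minus strand of chromosome 8, 120578633 to 120589304, and 2758 of the 3179 bases of its last exon, exon 5, face *Gse1*. In the transcript with the highest FPKM, exons 1 to 4 of *Gins2* were listed at 0 in both Unstimulated libraries and above 0 in all 4 stimulated libraries, while exon 5 had 416 and 387 FPKM in Unstimulated, 251 and 212 in Control and 107 and 66.6 in SMF libraries. In *Chaf1a*, exons 1 to 13 were listed at 0 in both Unstimulated libraries, and exon 14, 1277 bases of which face *Ubxn6*, had 115 and 85.8 FPKM there.

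**Figure D4:**
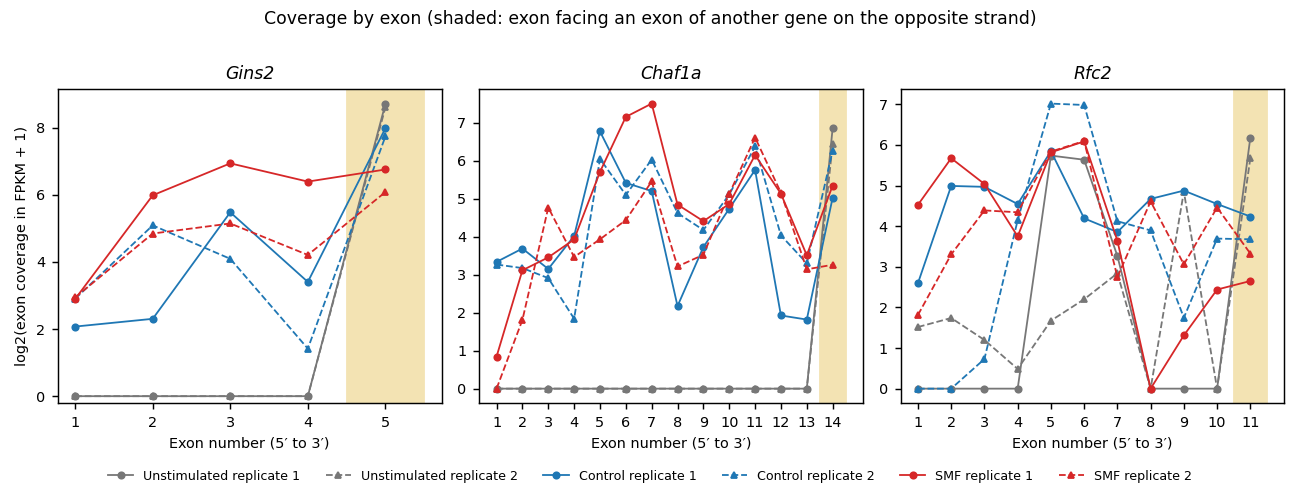
Coverage of each exon in FPKM units, as log2(value + 1), for the transcript of *Gins2*, *Chaf1a* and *Rfc2* with the highest FPKM, against exon number from 5′ to 3′ (grey Unstimulated, blue Control, red SMF; solid lines replicate 1, dashed replicate 2); the shaded last exon faces an exon of another gene. In *Gins2* and *Chaf1a* the grey lines lie at 0 in every exon but the shaded one, whereas the stimulated libraries also cover the others, apart from exon 1 of *Chaf1a* in SMF replicate 2.

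Over exons that face no other gene, *Gins2* was listed at 0 in both Unstimulated libraries and had 10.03 and 11.2 FPKM in Control and 50.2 and 32.6 in SMF libraries. *Chaf1a* had 0 and 0.798 FPKM in Unstimulated, 18.3 and 22.5 in Control and 28.9 and 28.8 in SMF libraries. *Rfc2* had 16.1 and 13.5 FPKM in Unstimulated, 32.0 and 38.2 in Control and 89.2 and 35.4 in SMF libraries. Measured this way, an alternative added after the data were seen, all 3 were called higher in Control than in Unstimulated cells, where over all exons their fitted changes were below 0. *Orc2* was also gained and *Fen1* lost. *Fen1* then had 0 FPKM in both Unstimulated libraries, 4.77 and 0 in Control and 18.3 and 2.30 in SMF libraries, and *Rfc5* 3.12 and 3.75, 0 and 19, and 26.0 and 18.7. With facing exons left out of all genes, 29 of the 47 were called higher in Control than in Unstimulated cells and 0 lower (11.2% and 11.9% of the 13214 genes then tested), and in SMF against Control cells 12 higher and 0 lower (14.6% and 3.07%). The libraries were made with a kit that keeps strand and were quantified with 1 strand setting in all 6. Whether that setting assigned reads to the right strand was not tested. In the 37 members whose last exon and at least 2 inner exons face no gene, the last exon (median length 534 bases) had less coverage than the median inner exon (109 bases) in 29 and 28 genes in the SMF libraries and in 28 in Control replicate 2, where it had more in 6, 9 and 7. In Control replicate 1 it had less in 13 and more in 9, and in the Unstimulated libraries less in 5 and 8 and more in 8 and 11. *Rrm1* is an example, with 26.8 FPKM over its last exon of 1477 bases and 165 FPKM over the median inner exon in SMF replicate 1.

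Replicates were nearer to each other in the SMF libraries, in the 47 genes as in all genes tested. Of the 47, 7 were at least 2-fold apart between the SMF libraries, 14 between the Control libraries and 17 between the Unstimulated libraries. Over all genes tested the shares at least 2-fold apart were 19.04%, 32.6% and 32.6% in the same order. The SMF pair shares 1 date, October 2018, whereas the replicates of the other groups span June and November 2017. The SMF libraries also covered the most bases, 259 and 227 Mb. Why the SMF replicates lay nearer was not tested. The 2 shallowest libraries, at 64.4 and 67.4 Mb, are Control replicate 1 and Unstimulated replicate 1, which also list the most members at 0 within their groups.

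Further genes of the pathway were taken as 3 other lists, whose counts stand against 12.3% of all genes tested called higher and 12.6% lower in Control against Unstimulated, 22.4% and 14.8% in SMF against Unstimulated and 12.5% and 5.72% in SMF against Control cells, with all-gene medians of -0.05, 0.27 and 0.32. Of 39 other replication genes, such as loading kinases, clamp loader variants and histone chaperones, 16 were called higher and 1 lower in Control than in Unstimulated cells, 23 and 3 in SMF than in Unstimulated cells, and 11 and 1 in SMF than in Control cells. The medians on the log2 scale were 0.77, 2.12 and 0.92. *Top2a*, the topoisomerase of dividing cells, had 0.337 and 9.97 FPKM in Unstimulated, 143 and 112 in Control and 213 and 210 in SMF libraries. *Dbf4* and *Cdc7*, the kinase pair that fires origins, were called higher in all 3 comparisons, *Cdc7* with 0 and 1.12 FPKM in Unstimulated, 4.94 and 2.87 in Control and 16.2 and 13.5 in SMF libraries. *Orc3*, an origin recognition subunit outside the 47, fell, with 105 and 172 FPKM in Unstimulated, 36.5 and 49.5 in Control and 50.4 and 53.8 in SMF libraries, a log2 change from Unstimulated to Control of -1.64 that was the same without facing exons. *Rnaseh2c*, a subunit of RNase H2, was called lower in SMF than in Control cells, with 202 and 85.6 FPKM in Control and 11.4 and 14.2 in SMF libraries. Over exons that face no gene *Rnaseh2c* had 7.41 and 21.3 FPKM in Control and 11.2 and 17.1 in SMF libraries, a log2 change of 0.12 that was not called.

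Of 17 genes of the E2F family and the pocket proteins, which switch replication genes on and off, 6 were called higher and 2 lower in Control than in Unstimulated cells, and 3 higher (17.6%, near the share of all genes) and 0 lower in SMF than in Control cells. The median log2 fold changes were 0.73 and 0.87. *E2f1*, *E2f2*, *E2f3*, *E2f8*, *Tfdp1* and *Lin54* rose in Control cells. *E2f2* had 1.11 and 1.17 FPKM in Unstimulated, 8.43 and 7.46 in Control and 12.7 and 15.4 in SMF libraries, and *Tfdp1*, a partner of E2F proteins, had 9.55 and 10.5, 26.8 and 61.6, and 102 and 117. *E2f6*, *Lin9* and *Tfdp1* were called higher in SMF than in Control cells. The calls below 0 were *Rb1* and *Rbl2*. *Rb1* had 603 and 437 FPKM in Unstimulated and 61.7 and 50.2 in Control libraries, but 11.6 and 4.34 against 3.25 and 8.59 over exons that face no gene, where neither *Rb1* nor *Rbl2* was called. On a list of 20 mitosis genes, 20 were called higher in Control than in Unstimulated cells (median 3.48 on the log2 scale), and 2 higher (10%, near the share of all genes) and 0 lower in SMF than in Control cells (median 0.69).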

How the data were processed

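RNA-Seq of mouse CD8+ T cells gave 1 transcript table per library, 6 in all, in 3 groups of 2 taken from the sample labels. The tables were deposited by the authors from StringTie 1.3.5, run on GRCm38 with GENCODE M19, restricted to annotated transcripts and stranded; the submitters' processing notes also name HISAT2 and Trimmomatic 0.36. Their attribute text holds FPKM, TPM and coverage (deposited by the authors), which are the other, non-count values used here; whole reads were not recovered. A deposited table of gene FPKM has 3 columns that match no sample and was not used, although the test plan had allowed for it.

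FPKM was summed per gene, and genes averaging 1 FPKM or more, 14991 in number, entered a limma fit (version 3.58.1, under R 4.3.3) of log2(FPKM + 1) on group, with variance trend and 3 residual degrees of freedom, at an adjusted p threshold of 0.05. The fit was tested on simulated data. Exons facing each other on opposite strands were found with bedtools 2.31.1, and exon coverage was multiplied by each library's ratio of FPKM to coverage. Other steps used Python 3.11.15 and pandas 2.3.3; figures used matplotlib 3.10.9. The precision of FPKM without counts is limited by depth, 64.4 to 259 Mb. Replicate numbers are shared between groups; the correlation of replicate differences over the 14991 genes was 0.10 for Unstimulated and Control, 0.03 for Unstimulated and SMF and 0.02 for Control and SMF.

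The 47 members and all other lists were chosen with earlier results of these data known. By rule, values in every library are given for each member called in a comparison and at least 1 per role, and for other lists by counts with called genes as examples. Alternatives were pseudocounts, filters, scalings, TPM, no variance trend, removal of a trend on transcript length, a replicate block and leaving out each library; leaving out facing exons and a block on the 4 Unstimulated and Control libraries were added after the data were seen.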

Additional observations from a re-analysis of the deposited data

How the results depend on the processing

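Control against Unstimulated. With 1 library left out, 20 to 26 of the 47 genes were called higher, 0 to 1 lower, 0 to 10 passed an adjusted p of 0.05 and the median log2 fold change was between 1.75 and 2.09. With no filter on low values 11 passed the adjusted p. The replicate block, by which same-numbered libraries are paired, called 1 gene lower, *Rfc2*; in the 4 Unstimulated and Control libraries alone the block called the same 1 lower and 0 passed the adjusted p. SMF against Unstimulated. The median of 3.16 was 3.61 and 3.52 with pseudocounts of 0.1 and 0.5, 3.52 with TPM, 2.68 after scaling to the FPKM total of multi-exon protein-coding genes and 2.72 without the trend on transcript length. With 1 library left out it was 2.70 to 3.25, 0 to 25 genes passed the adjusted p and 1 to 2 were called lower. SMF against Control. The 13 genes called higher became 8 with a pseudocount of 0.1, 7 with every library at a common median, 5 with the protein-coding sum and 7 without the length trend, and 1 was called lower under each of these last 3 settings, where the medians were 0.69, 0.68 and 0.72. With 1 library left out, 4 to 14 were called higher, 4 without SMF replicate 1, 8 without SMF replicate 2 and 7 without Control replicate 1, with medians of 0.85 to 1.23. Over all genes tested the same 2 scalings turned 1868 higher and 857 lower into 877 and 1441 (common median) and 858 and 1360 (protein-coding sum). With facing exons left out, 7 log2 fold changes that were called with or without these exons changed sign. In Control against Unstimulated they were those of *Gins2* (3.54), *Rfc2* (1.19) and *Chaf1a* (3.99). In SMF against Unstimulated they were those of *Gins2* (5.37), *Rfc2* (1.87) and *Chaf1a* (4.48), and 0 genes were then called lower. In SMF against Control it was that of *Gins2* (1.84). A further 4, called in neither fit, also changed sign. They were *Orc1*, *Rfc4* and *Rfc5* in Control against Unstimulated and *Chaf1a* in SMF against Control. A single-library group was assumed to vary like the others.

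The groups of 2, the depth of 64.4 to 67.4 Mb of Control and Unstimulated replicate 1 and the absence of counts limit low genes most. The cause of each change with a setting was not tested, apart from the exons left out.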

Other observations

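*Pcna-ps2*, a processed pseudogene of *Pcna*, had 3.30 and 5.24 FPKM in Unstimulated, 3.12 and 12.6 in Control and 25.8 and 20.98 in SMF libraries, and how reads shared with *Pcna* were divided was not tested.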
